A study of Mus musculus with 4 samples.

Results

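The quantity described here is the difference between 2 diet differences in mouse liver: the change on a cholic acid (CA) diet after diethylnitrosamine (DEN), minus the change on the same diet without DEN. It was computed for all 18194 named genes of an expression array, of which 11651 had a mean level at or above background and were counted. It is called the interaction below. A positive value means that a gene's level on the CA diet, relative to the control diet, was higher after DEN than without DEN, and a negative value means that it was lower. A value of 1 on the log2 scale is a 2-fold difference between both diet differences.

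The 4 groups, with 1 array each, were mice on a control diet without DEN (the control pool), mice on a diet with 0.2% CA without DEN (the CA pool), mice given DEN and then the control diet (the DEN pool), and mice given DEN and then the 0.2% CA diet (the DEN and CA pool). Every array held RNA of livers pooled from 3 to 5 mice at 10 months of age. Details not given in the sources used here include the strain, the sex, the dose of DEN and whether tumour or surrounding tissue was taken. With 1 pool per group there was no replicate, so no difference below has an error or a test, and "2-fold" describes these 4 pools only.

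Cholic acid is a primary bile acid. Bile acids are ligands of the nuclear receptor FXR (Nr1h4), which induces the repressor SHP (Nr0b2) and thereby lowers Cyp7a1 and Cyp8b1, the enzymes that set the rate of bile acid synthesis and the share of cholic acid in the pool. Bile acids also promote uptake of cholesterol from the gut, and cholesterol in the hepatocyte holds back the transcription factor SREBP2, which drives the genes of sterol synthesis. DEN is activated by cytochromes in hepatocytes, alkylates DNA and is used to induce liver tumours in mice.

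Of the 11651 expressed genes, 46 (0.395%) had an interaction of 1 or more and 63 (0.541%) an interaction of -1 or less. The median over all expressed genes was -0.04, and the middle 95% of them lay between -0.62 and 0.55. Sqle, the squalene epoxidase of sterol synthesis, had the highest value at 3.84, and Fos, a subunit of the AP-1 transcription factor, the lowest at -2.73. Just inside and just outside the 2-fold threshold lay Zfp677 (1.01) and Ces2b (0.99) on the positive side, and Ccna2 (-1.0) and Tnfrsf21 (-0.99) on the negative side. The diet differences that enter the interaction were themselves at least 2-fold up for 63 genes (0.541%) and down for 64 (0.549%) without DEN, and up for 30 (0.257%) and down for 50 (0.429%) after DEN. The diet difference without DEN and that after DEN share no array.

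The array medians over all probe sets lay between 4.84 and 4.86, and levels below 4.855, the median of all probe set means, were treated as background and raised to it before subtraction. Hepatocyte markers were high on all 4 arrays: their median level was 14.06, 14.07, 13.74 and 13.57 in the control, CA, DEN, and DEN and CA pools, with none of 8 expressed members at a 2-fold interaction. The 18 probe sets for hybridization controls had a median interaction of 0.10, with a range from -0.20 to 0.57. The 24 probe sets for poly-A control RNAs, which are added to a sample before labelling, had a median of -0.67, with a range from -1.23 to -0.41. Their median diet difference was 0.31 without DEN and -0.35 after DEN, and the part of this in the results was not tested. The 3' minus 5' difference of Gapdh, a measure of RNA quality, lay between 0.44 and 0.51 on the 4 arrays, and that of Actb between 1.70 and 1.90. In pooled tissue, fewer cells of a type and less RNA per cell cannot be told apart.

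**Figure D1:**
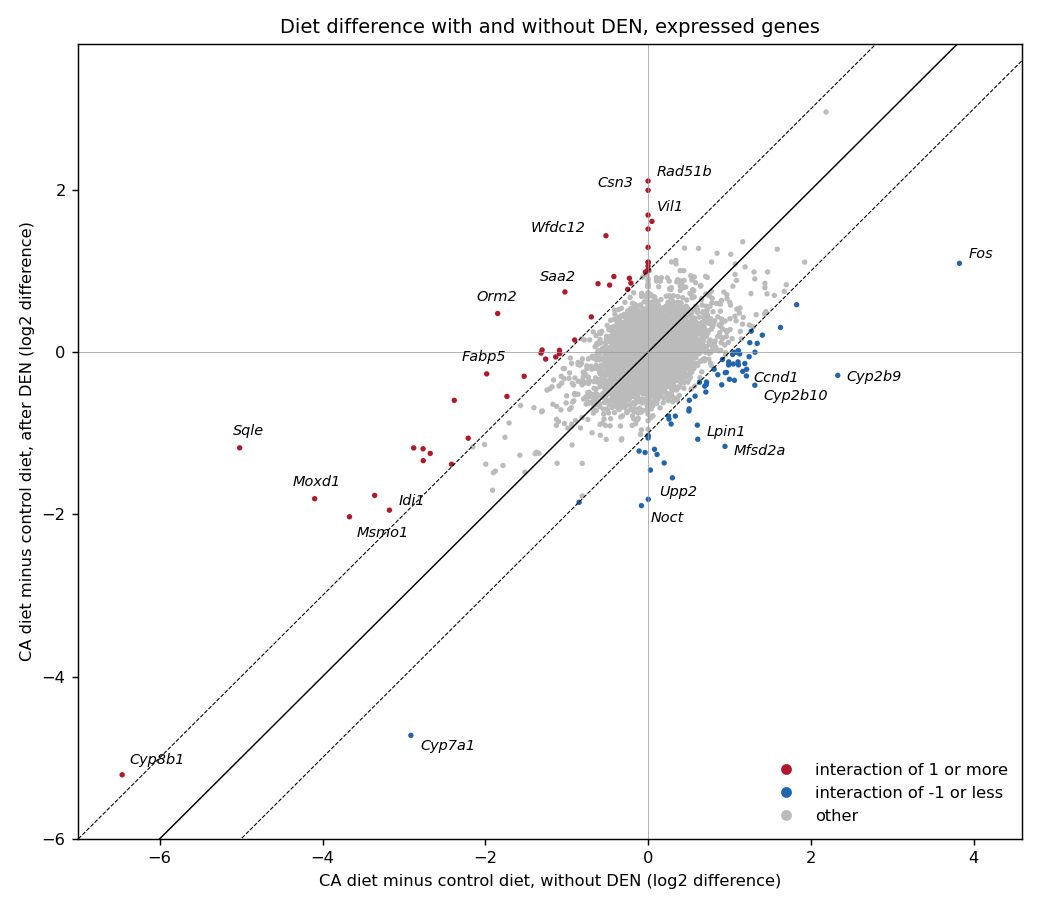
Each point is 1 of 11651 expressed genes, with the log2 diet difference without DEN on the x axis and after DEN on the y axis, and levels under background raised. The solid line marks equal diet differences and the dashed lines an interaction of 1 and -1. Genes of sterol synthesis lie above the lines at the lower left, and Fos and Cyp2b9 lie below them at the right.

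Among the 41 gene lists examined, that of sterol synthesis held the most positive genes. All lists and their members were chosen with earlier results of these data known, so that their shares are description only. For every list below, the shares to compare are those of all expressed genes, 0.395% positive and 0.541% negative. Of 20 expressed members of the list for cholesterol synthesis and uptake, 8 (40%) had an interaction of 1 or more and 0 had one of -1 or less, against 0.395% and 0.541% of all expressed genes. The median interaction of the list was 0.72, and 18 of 20 members were above 0. All 8 genes were lower on the CA diet in both settings, and the decrease was smaller after DEN. The median diet difference of the list was -1.95 without DEN and -1.18 after DEN. Among the same 20 genes, 15 without DEN and 13 after DEN passed a 2-fold decrease between the diets. On the control diet the DEN pool differed from the control pool by a median of -0.08, whereas on the CA diet the DEN and CA pool was higher than the CA pool by a median of 0.94.

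Promoter sequences of genes of this group are shown because sterol synthesis genes are known targets of SREBP2, which binds a sterol element and acts together with NF-Y, the factor that binds CCAAT. The windows were taken from RefSeq, build GRCm38.p6, and are parts of the 250 bases before a gene start, written 5' to 3' on the gene's strand. Capitals mark TCACNCCAC in the first and CCAAT or its reverse complement ATTGG in the others. Both strands were searched.
Hmgcs1, chr13:119690168-119690267, plus strand: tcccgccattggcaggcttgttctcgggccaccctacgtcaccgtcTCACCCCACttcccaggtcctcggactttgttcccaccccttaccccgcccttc
Idi1, chr13:8885506-8885605, plus strand: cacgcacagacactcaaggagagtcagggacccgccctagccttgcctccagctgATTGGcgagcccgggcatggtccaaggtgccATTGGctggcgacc
Cyp51, chr5:4104698-4104797, minus strand: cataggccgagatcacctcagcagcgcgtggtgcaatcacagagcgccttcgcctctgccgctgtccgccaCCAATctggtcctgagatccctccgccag
Nsdhl, chrX:72918409-72918508, plus strand: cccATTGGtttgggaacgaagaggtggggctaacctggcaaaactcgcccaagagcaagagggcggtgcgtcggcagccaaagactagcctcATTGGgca
Dhcr7, chr7:143830099-143830198, plus strand: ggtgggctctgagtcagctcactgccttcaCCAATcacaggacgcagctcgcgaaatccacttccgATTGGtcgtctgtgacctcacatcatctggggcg

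A promoter was found for 16 of the 20 expressed sterol genes, with 19 windows in all. CCAAT was in 16 of these 19 windows (84.2%), at least 1 for each of the 16 genes, and in 34.6% of the 12064 windows of all expressed genes. Of the 8 positive sterol genes, 6 had a promoter, with 8 windows, and Sqle and Fdps had none. Among these 8 windows 6 (75.0%) held CCAAT, 1 for each of the 6 genes, and among those of the other members 10 of 11 (90.9%). The motif was thus no more frequent in the genes that passed 2-fold than in the rest of the list. TCACNCCAC was in 1 of the 19 windows, that of Hmgcs1, and in 1.09% of the windows of expressed genes. These are matches of letters and not measured binding sites.

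Among the enzymes up to lanosterol, 4 of 9 expressed members passed 2-fold, with a median interaction of 0.99. Sqle had levels of 9.87, 4.69, 10.24 and 9.06 in the control, CA, DEN, and DEN and CA pools. It was low in the CA pool alone, where it lay under background, and between 9.06 and 10.24 in the other 3. Its decrease on the CA diet was therefore at least 32.4-fold without DEN and was 2.27-fold after DEN, which puts the interaction at 3.84 or more. Hmgcs1, an early synthase of the mevalonate pathway, had levels of 12.88, 10.00, 12.76 and 11.58, a decrease of 7.36-fold without DEN and 2.27-fold after DEN. Its other 3 probe sets above background gave interactions from 1.41 to 1.73, beside 1.70 for the one used. Fdps, which makes farnesyl diphosphate, had levels of 11.13, 7.78, 11.11 and 9.35, and an interaction of 1.59. Idi1, the isopentenyl diphosphate isomerase, had levels of 11.97, 8.79, 11.75 and 9.80, an interaction of 1.23, and 1.94 on its other probe set. In all 4 genes the control and DEN pools differed by at most 0.37, and the CA pool was the lowest. Pmvk (0.99) and Mvd (0.84) lay just under the threshold, whereas Fdft1, the squalene synthase, had 0.21, with decreases of 1.91 and 1.70 on the log2 scale, and Mvk had -0.10.

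Of the enzymes after lanosterol, 4 of 8 expressed members passed 2-fold, with a median interaction of 0.88. Msmo1, the C4-methyl sterol oxidase, had levels of 12.18, 8.51, 11.59 and 9.56, and an interaction of 1.64. Cyp51, the lanosterol demethylase, had levels of 10.11, 7.34, 10.37 and 9.18, and an interaction of 1.57, with 1.89 and 0.48 on its other probe sets. Nsdhl, which like Msmo1 acts in the removal of C4-methyl groups, had levels of 10.04, 7.28, 9.89 and 8.55, and an interaction of 1.42. These 3 genes were lowest in the CA pool and intermediate in the DEN and CA pool. Dhcr7, the last enzyme of the pathway, followed the same order with 9.55, 7.34, 10.17 and 9.11, and an interaction of 1.15. Ebp (-0.27), Sc5d (0.30) and Tm7sf2 (0.31) were far from the threshold. The 3 expressed genes of uptake and regulation had interactions from 0.01 to 0.39: Stard4, the transcription factor Srebf2 itself and Insig1.

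A low CA pool was also found outside the list. In 20 of the 46 positive genes the CA pool stood apart on the low side, by at least 1 from the nearest of the other 3. A positive interaction allows the CA pool to stand apart on this side only. All 8 positive sterol genes were among these 20. Moxd1, a monooxygenase with male-biased expression in mouse liver, had levels of 8.95, 4.21, 8.49 and 6.68, and an interaction of at least 2.29. Fmn1, an actin nucleator, had levels of 7.24, 4.37, 8.52 and 7.92, and an interaction of at least 1.79. Its other probe set, with a mean under background, read 4.55, 4.48, 5.17 and 4.96 and gave -0.21 (-0.15 as deposited). Fabp5, a fatty acid binding protein, had levels of 10.74, 8.76, 12.65 and 12.38, an interaction of 1.72, and 1.59 on its other probe set. For Fabp5 the decrease on the CA diet was 3.95-fold without DEN and 1.2-fold after DEN. Rdh11, a retinol dehydrogenase, had an interaction of 1.43 (1.34 on its other probe set). The fatty acid elongases Elovl5 and Elovl3 had 1.17 and 1.19. For the list of fatty acid synthesis as a whole, 1 of 17 expressed members was positive (Elovl5) and 1 negative (Thrsp), with a median of 0.01. Asns, the asparagine synthetase, had an interaction of at least 1.03 (1.35 as deposited). On its other probe set the CA pool was under background, which gave a lower bound of -0.45, and 2.20 as deposited.

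**Figure D2:**
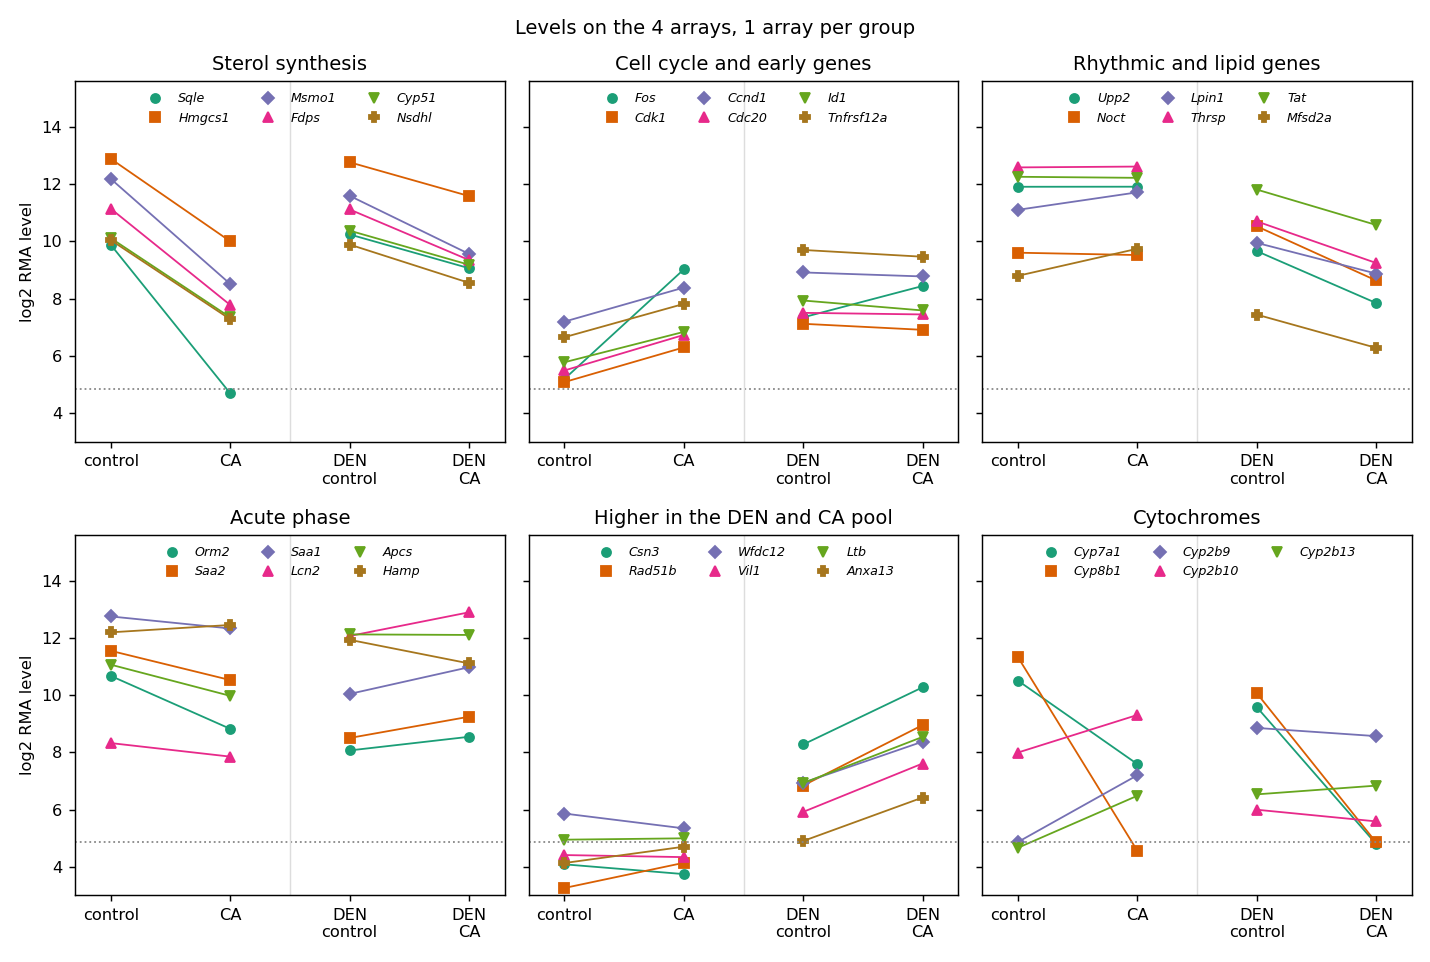
Log2 RMA levels as deposited of selected genes in the control, CA, DEN, and DEN and CA pools, 1 array per group, in 6 panels by gene group. Lines join both diets within a setting, and the dotted line marks background at 4.855. Sterol genes dip in the CA pool, cell cycle genes are low in the control pool, and Csn3, Rad51b and Ltb are high in the DEN and CA pool.

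Of 16 expressed genes of bile acid synthesis and conjugation, 1 had a positive and 1 a negative interaction, with a median of -0.06. These were Cyp8b1 and Cyp7a1, which were also the only 2 members past 2-fold between the diets, both lower in each setting. Cyp7a1 had levels of 10.50, 7.59, 9.58 and 4.80 in the control, CA, DEN, and DEN and CA pools. Its level fell 7.54-fold on the CA diet without DEN and at least 26.4-fold after DEN, since the level of the DEN and CA pool was under background. This gives an interaction of -1.81 or less. Its other probe set read 8.58, 5.41, 7.16 and 3.46. With the last level raised to background this gave an upper bound of 0.87, which leaves its direction open. As deposited both probe sets were negative, with -1.87 and -0.53, so that the size depended on the probe set and on the floor. Cyp8b1, the sterol 12-hydroxylase, had levels of 11.32, 4.55, 10.07 and 4.85. Both CA levels were under background, and its interaction of 1.25 came from the difference between both control diet levels. Whether the loss of Cyp8b1 differed between the settings could not be read from these values.

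Bile acid receptors, targets and transporters had 0 positive and 1 negative of 19 expressed members, with a median of -0.05. The negative gene was Abcb1a, an efflux pump, with levels of 4.85, 6.68, 6.99 and 7.58 and an interaction of -1.24 or less (-0.79 on its other probe set). It was low in the control pool alone. Nr0b2, the SHP repressor, had levels of 8.22, 9.09, 8.53 and 8.86 and an interaction of -0.54. The canalicular bile salt pump Abcb11 (0.02) and the basolateral exporter subunit Slc51b (0.23) had nearly equal diet differences in both settings. Abcg5, a subunit of the sterol exporter, was 2.70-fold higher on the CA diet without DEN and 1.74-fold higher after DEN. Slc10a2, the sodium-dependent bile acid transporter of ileum and bile duct, was not a member of the list and had levels of 5.34, 6.54, 6.0 and 5.71 and an interaction of -1.5.

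The lowest interaction belonged to Fos, with levels of 5.19, 9.02, 7.34 and 8.44. It was 14.2-fold higher on the CA diet without DEN and 2.14-fold higher after DEN, and the control pool alone was low. Fos was the only gene of 22 expressed immediate early genes to pass 2-fold, and the median of the list was -0.24. Egr1, a zinc finger factor induced by growth signals, had levels of 7.56, 9.23, 11.01 and 11.76 and an interaction of -0.92. Jun, the partner of Fos in AP-1, had levels of 6.0, 7.70, 8.0 and 8.83 and an interaction of -0.87. In Fos, Egr1 and Jun the CA level was above the control level in both settings, by less after DEN. Maff (-0.98) lay just outside the threshold. Socs3, an inhibitor of cytokine signalling, had -0.74, with -0.96 and -1.22 on its other probe sets, and Klf4 had 0.68.

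Cell cycle genes were on the negative side. Of 28 expressed members, 8 (28.6%) had an interaction of -1 or less and 0 one of 1 or more, against 0.541% and 0.395% of all expressed genes, and the median was -0.41. This list, too, was chosen with earlier results of these data known. The list's median level was 5.1 in the control pool, 5.78 in the CA pool, 6.62 in the DEN pool and 6.47 in the DEN and CA pool. It was thus higher on the CA diet without DEN, and at a similar level on both diets after DEN. Many levels of the control pool lay near background. With values as deposited, not raised, the list's median was -0.80.

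Cdk1, the kinase of entry into mitosis, had levels of 5.08, 6.29, 7.12 and 6.91 and an interaction of -1.42. Ccnd1, the cyclin of the G1 phase, had levels of 7.2, 8.38, 8.91 and 8.77 and an interaction of -1.33, with -0.87 and -1.26 on its other probe sets. Cdc20, an activator of the anaphase-promoting complex, had levels of 5.49, 6.73, 7.5 and 7.45 and an interaction of -1.30, with -1.34 and -0.30 on its other probe sets. In these 3 genes the control pool was at least 1 below the others, which differed from each other by less. Ube2c (-1.33 or less), Cdca3 (-1.20 or less) and Ccna2 (-1.0) ran the same way, although Ccna2 had -0.19 on its other probe set. Ccne2 (-1.31) had another pattern and was above background in the CA pool alone, with 6.17. Cdkn3 (-1.03) was above background only after DEN, with 6.22 in the DEN pool and 5.19 in the DEN and CA pool, and had -1.82 as deposited. Mki67, the proliferation antigen, had levels of 3.90, 5.32, 7.15 and 6.99 and an interaction of -0.62, or -1.58 as deposited. The replication helicase subunit Mcm2 went the other way with 0.98.

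Promoters of the cell cycle group are shown because CCAAT pairs are known from genes of late cell cycle phases. All 5 negative cell cycle genes with a promoter in RefSeq (Cdc20, Cdca3, Cdk1, Cdkn3 and Ube2c) held CCAAT, as did 34.6% of the windows of all expressed genes. It was in 47.1% of the 51 windows of negative genes and in 47.9% of the 48 windows of positive genes. The share among the other cell cycle members was not counted, so these values do not tie the motif to the interaction. Capitals mark CCAAT or ATTGG.
Cdc20, chr4:118437344-118437443, minus strand: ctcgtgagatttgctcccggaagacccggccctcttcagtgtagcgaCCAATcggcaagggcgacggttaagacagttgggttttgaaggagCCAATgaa
Cdca3, chr6:124830041-124830140, plus strand: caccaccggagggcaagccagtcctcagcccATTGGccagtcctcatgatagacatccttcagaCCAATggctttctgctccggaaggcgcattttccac

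In 19 of the 63 negative genes the control pool stood apart on the low side, the only side that a negative interaction allows for it. Besides Fos, Cdk1, Ccnd1 and Cdc20, these included Id1, an inhibitor of differentiation factors, with 5.78, 6.84, 7.93 and 7.59. Tnfrsf12a, the TWEAK receptor, had levels of 6.65, 7.81, 9.70 and 9.46 and an interaction of -1.40, with -1.06 on its other probe set. The chemokine Cxcl1 had levels of 8.52, 9.79, 10.50 and 10.76 and an interaction of -1.01, with -1.12 and -0.63 on its other probe sets. Kif22, a mitotic kinesin, had -1.23 on the probe set used and 0.39 on another. Macrophage markers, as a list, had 0 of 17 members past 2-fold and a median of -0.11, with median levels of 6.99, 7.56, 8.0 and 8.53 in the 4 pools. The part of these markers in the group was not tested.

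Cyp2b9, of the CYP2B subfamily of cytochromes, which includes known targets of the nuclear receptor CAR, had the lowest interaction after Fos. All 3 measured members of the subfamily in the lists were past the threshold. They made up the 3 negative genes (12.5%, against 0.541% of all expressed genes) among 24 expressed genes of phase I metabolism. That list had a median of -0.18. Cyp2b9 had levels of 4.87, 7.2, 8.85 and 8.56. It was 5.03-fold higher on the CA diet without DEN and 1.22-fold lower after DEN, an interaction of -2.62. Cyp2b13 had levels of 4.66, 6.48, 6.53 and 6.83 and an interaction of -1.32 or less. Both were low in the control pool alone. Cyp2b10 had levels of 7.99, 9.30, 5.99 and 5.59, and was low in both DEN pools. Its interaction was -1.72, with -1.88 and -1.26 on its other probe sets. The sequences of these 3 genes are close, so that a probe set may also read a neighbour. Cyp2b9 and Cyp2b13 were also the 2 negative genes (25%) among 8 expressed female-biased liver genes, against 0.541% of all expressed genes. The median of that list was -0.09. Male-biased liver genes had 2 positive (14.3%, against 0.395%) and 0 negative of 14 expressed members, with a median of 0.12. The sex of the pools was not given, and its part in these values was not tested.

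**Figure D3:**
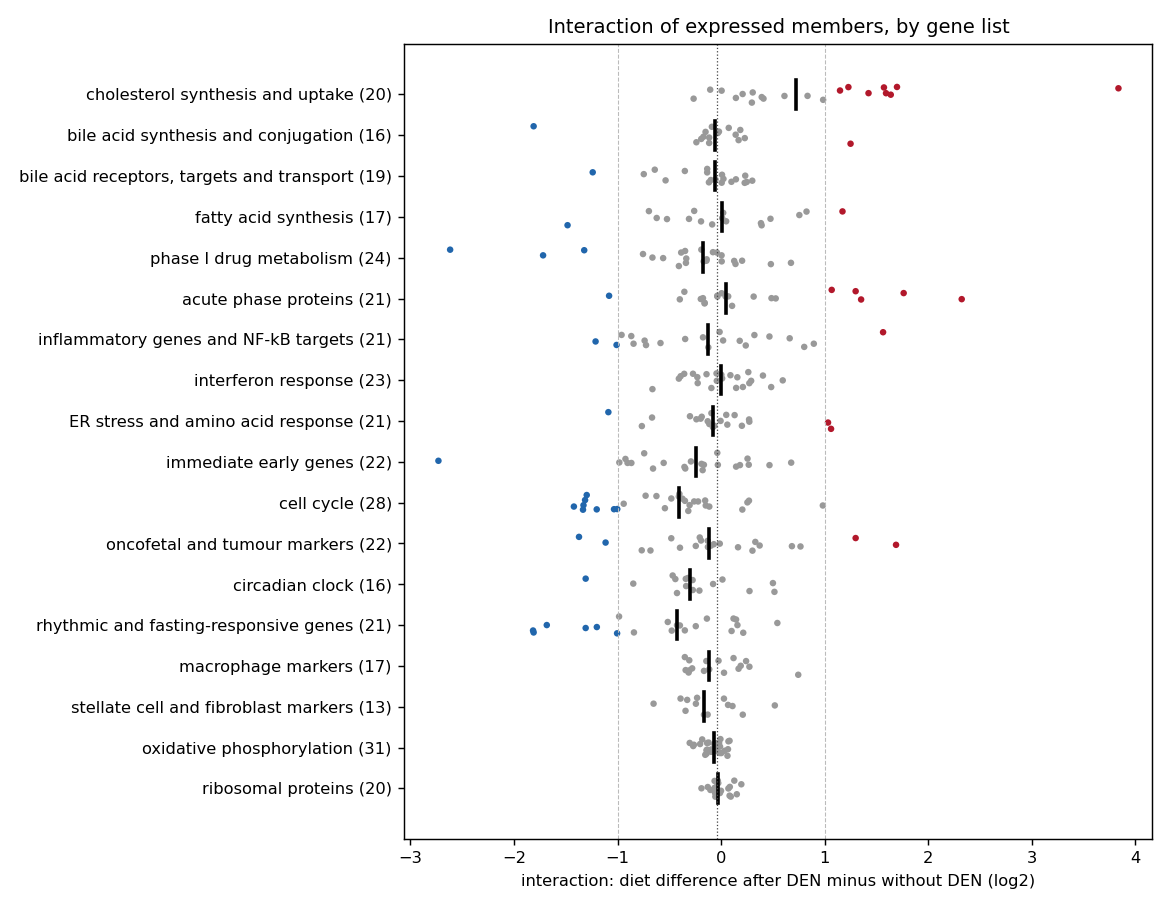
Interaction (log2, x axis) of each expressed member of 18 gene lists, with the number of members in brackets. Black bars are list medians, the dotted line is the median of all expressed genes (-0.04) and dashed lines mark 1 and -1. The sterol list lies to the right with a median of 0.72, and the cell cycle (-0.41) and rhythmic and fasting-responsive (-0.43) lists lie to the left.

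Rhythmic and fasting-responsive genes were also on the negative side, with the diet differences after DEN: 5 of 21 expressed members were 2-fold lower on the CA diet after DEN, and 0 were 2-fold different without DEN. Of these 21, 6 (28.6%) had an interaction of -1 or less and 0 one of 1 or more, against 0.541% and 0.395% of all expressed genes. Members of this list were chosen with earlier results of these data known, so that its share is description only. The median was -0.43. Upp2, a uridine phosphorylase, had levels of 11.91, 11.91, 9.66 and 7.85 and was 3.52-fold lower on the CA diet after DEN. Its interaction was -1.82, with -1.79 and -0.01 on its other probe sets. On the last of these both levels after DEN were under background, so that their difference is 0 by construction (interaction -0.16 as deposited). Noct, a rhythmic phosphatase, had levels of 9.60, 9.52, 10.53 and 8.63 and an interaction of -1.81. In both genes the control and CA pools were nearly equal, and the DEN and CA pool was the lowest. Tat, a tyrosine aminotransferase induced by glucocorticoids, had levels of 12.26, 12.22, 11.81 and 10.57 and an interaction of -1.20. Nnmt, the nicotinamide methyltransferase, was lower on the CA diet in both settings, 1.8-fold without DEN and 3.61-fold after DEN.

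Per1, a clock gene that is also a glucocorticoid target, had levels of 7.29, 8.19, 6.87 and 6.47 and an interaction of -1.31. It was the only negative gene among 16 expressed clock genes, whose median was -0.30. Dbp, an output gene of the clock, had -0.34, although it was far lower in both DEN pools, with levels of 11.02, 11.20, 8.34 and 8.17. Other glucocorticoid-responsive members were under 2-fold, with -0.99 for Fkbp5 and -0.84 for Tsc22d3. Pck1, also a member of the rhythmic and fasting-responsive list, had -0.24, with -0.76 on its other probe set above background. Of the 21 expressed members of that list, 6 had an interaction above 0, the highest at 0.54. The hour of tissue collection, also not given in the sources used here, could not be compared between pools, and its part in these values was not tested.

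Mfsd2a, Lpin1, Thrsp and Angptl4, 4 negative genes with roles in lipid metabolism, were lowest in the DEN and CA pool. Mfsd2a, a transporter of lysophospholipids, had levels of 8.80, 9.74, 7.44 and 6.28, 1.93-fold higher on the CA diet without DEN and 2.24-fold lower after DEN. Lpin1, a phosphatidate phosphatase that is also a coactivator in fasting, had levels of 11.10, 11.71, 9.95 and 8.87 and an interaction of -1.68, with -1.87 on its other probe set. Thrsp, a promoter of lipogenesis, had levels of 12.58, 12.61, 10.70 and 9.24 and an interaction of -1.48, with -1.24 and 0.10 on its other probe sets. Angptl4, an inhibitor of lipoprotein lipase, had levels of 10.42, 10.50, 9.64 and 8.44 and an interaction of -1.28. The lists of lipid metabolism did not lie on 1 side. Among 16 expressed genes of lipid droplets and storage, Lpin1 alone was negative and 0 were positive, with a median of -0.18. Among 16 expressed genes of fatty acid oxidation, Angptl4 was negative and Vnn1, a pantetheinase, positive, with a median of -0.10. Vnn1 had levels of 9.90, 9.20, 10.46 and 10.89, highest in the DEN and CA pool.

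Acute phase proteins, which hepatocytes secrete in inflammation, had 5 positive (23.8%) and 1 negative (4.76%) of 21 expressed members. The shares of all expressed genes were 0.395% and 0.541%. The median of the list was 0.04. Orm2, an orosomucoid, had levels of 10.67, 8.82, 8.06 and 8.54, 3.60-fold lower on the CA diet without DEN and 1.39-fold higher after DEN. Its interaction was 2.32. The serum amyloids Saa2 and Saa1 had levels of 11.54, 10.52, 8.50 and 9.24, and of 12.74, 12.32, 10.04 and 10.97. Their interactions were 1.76 and 1.35, with 1.62 on the other probe set of Saa1. These near-identical paralogs may share probes. Orm2, Saa1 and Saa2 were highest in the control pool and lowest in the DEN pool.

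The other positive members of this list did not follow that order. Lcn2, an iron-binding lipocalin, had levels of 8.32, 7.85, 12.06 and 12.89, highest in the DEN and CA pool, and an interaction of 1.30. Apcs, the serum amyloid P component, had an interaction of 1.07 and was low in the CA pool alone. The negative gene was Hamp, the iron hormone hepcidin, with levels of 12.19, 12.45, 11.93 and 11.10 and an interaction of -1.08 (-1.09 on its other probe set). Inflammatory genes and NF-kB targets had 1 positive (Ltb) and 2 negative (Vcam1 and Cxcl1) of 21, with a median of -0.12. These shares were 4.76% and 9.52%, against 0.395% and 0.541% of all expressed genes. Vcam1, an adhesion molecule, had -1.21 on the probe set used, with -0.79 and 0.04 on others. Interferon response genes had 0 of 23 past 2-fold and a median of 0.00.

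A further 12 positive genes stood apart on the high side in the DEN and CA pool, the only side that a positive interaction allows for it. Csn3, the milk protein kappa-casein, had levels of 4.09, 3.74, 8.27 and 10.27, which is 3.99-fold higher on the CA diet after DEN. Rad51b, which acts in DNA repair, had levels of 3.26, 4.14, 6.84 and 8.95 and an interaction of 2.11. Both were under background without DEN, so that a diet difference without DEN could not be measured. As deposited their interactions were 2.34 and 1.23. The other probe set of each was under background in all 4 pools, with 0.71 for Csn3 and -0.76 for Rad51b as deposited. Ltb, the lymphotoxin beta chain, had levels of 4.95, 4.99, 6.92 and 8.54 and an interaction of 1.56. Wfdc12, a secreted protease inhibitor, had levels of 5.86, 5.34, 6.94 and 8.37 and an interaction of 1.95. Pycard, the inflammasome adaptor, had 1.11, and Ubd, a ubiquitin-like modifier, also 1.11. Ubd was under background without DEN, and its 0.70 as deposited was under 2-fold.

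Vil1, which encodes the microvillus protein villin, had levels of 4.41, 4.34, 5.92 and 7.61 and an interaction of 1.69. Anxa13, an annexin of epithelia, had levels of 4.13, 4.70, 4.90 and 6.42 and an interaction of 1.52. Both are among the markers of gallbladder and intestinal epithelium, of which 2 were positive and 2 negative among 10 expressed members. Each share was 20%, against 0.395% and 0.541% of all expressed genes. The negative ones were Tff3, a trefoil factor of mucus, and Cdh17, an intestinal cadherin. Tff3 had levels of 6.34, 6.45, 11.70 and 10.44 and an interaction of -1.37, and Cdh17 had 3.31, 3.18, 8.25 and 7.19 and an interaction of -1.06. Without DEN, Vil1, Anxa13 and Cdh17 were under background on both diets. As deposited, Anxa13 (0.95) and Cdh17 (-0.93) were under 2-fold and Vil1 had 1.76. Tff3 and Cdh17 were highest in the DEN pool, and Vil1 and Anxa13 in the DEN and CA pool. The list's median level was 5.43, 5.45, 6.37 and 6.80 in the 4 pools. The defining markers Cdx2, Muc2 and Agr2 had means under background. Among cholangiocyte markers, Anxa13 alone passed 2-fold of 6 expressed members, and the median was 0.27 (0.15 as deposited). The markers Krt7, Krt19 and Cftr had means under background.

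In the tumour marker list, 2 of 22 expressed members were positive and 2 negative, with a median of -0.11. Each share was 9.09%, against 0.395% and 0.541% of all expressed genes. The positive ones, Vil1 and Lcn2, and the negative Tff3 are given above, and the fourth was Cd24a (-1.12, with -0.34 and -0.76 on other probe sets). Afp, the fetal liver protein, had levels of 4.77, 4.10, 12.65 and 12.17, and Gpc3, a fetal glypican, had 4.14, 4.41, 9.80 and 9.73. Both were high after DEN on either diet and under background without DEN. Their interactions were -0.48 and -0.07 with those levels raised, and 0.19 and -0.34 as deposited. Gene by gene, the median difference of the list between the DEN and control pools was 3.56, and that between the DEN and CA pool and the CA pool was 3.42.

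Among negative genes highest in the DEN pool were 3 that encode parts of immunoglobulins. Jchain, the joining chain of polymeric IgA and IgM, had levels of 5.26, 5.87, 7.67 and 6.77 and an interaction of -1.51. Igha, the IgA heavy chain, had levels of 6.81, 6.70, 8.75 and 7.53 and an interaction of -1.11, with -1.82 and -1.34 on its other probe sets. Igkv8-30, a kappa light chain segment, had -1.23. Ighm, the IgM heavy chain, had levels of 8.99, 9.14, 10.38 and 10.03 and an interaction of -0.49. Its other probe sets above background ranged from -1.11 to 0.49, and 2 of them were highest in the control pool. Of 6 expressed markers of B and plasma cells, Jchain alone passed 2-fold, and the median was -0.17. Cd79a, Ms4a1 and Tnfrsf17 had means under background.

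Several lists held 0 genes at 2-fold in either direction. Ribosomal proteins (20 expressed members) had a median of -0.03, oxidative phosphorylation (31) -0.06, pericentral and WNT genes (17) -0.02, periportal genes (14) -0.01 and glucose metabolism (19) -0.11. For p53 targets (18) the median was -0.13, with -0.40 for Cdkn1a, the inhibitor of cyclin-dependent kinases. NRF2 targets (18) had a median of 0.29 and matrix genes (20) one of -0.23. The list of growth hormone signalling (11) had a median of -0.19, with 0.20 for Socs2 and -0.96 for the repressor Bcl6. Markers of stellate cells (13), endothelial cells (12), neutrophils (3) and T and NK cells (5) had medians of -0.16, 0.18, 0.25 and 0.13. The neutrophil median was -0.01 with values as deposited, so that its sign depended on the floor.

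The shape of the interaction was counted over all genes past 2-fold. Of the 46 positive genes, 11 changed at least 2-fold without DEN and less than 1.5-fold after DEN. A further 12 changed at least 2-fold after DEN and less than 1.5-fold without DEN. The sign of the interaction fixes the direction in both classes, so that the 11 must be lower on the CA diet and the 12 higher. In 9 of these 12 both levels without DEN were under background, so that their diet difference without DEN is 0 by construction and the class says nothing of it. In 13 genes, 8 of them of sterol synthesis, the CA level was at least 1.5-fold lower in both settings. The other 10 comprised 2 with opposite diet differences and 8 of no class. Of the 63 negative genes, 22 changed without DEN only and 12 after DEN only, of which 3 had both levels without DEN under background. The sign again fixes the direction, so that the 22 must be higher on the CA diet and the 12 lower. Among the 22, Ccne2 and Gna14 had both levels after DEN under background, so that their diet difference after DEN is 0 by construction. In 4 genes (Abcb1a, Cyp7a1, Fos and Nnmt) both differences had the same direction, in 3 they were opposite, and 22 fell in no class.

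A single array stood apart in 37 of the positive and 37 of the negative genes. The gap was measured to the nearest array only, so that the other 3 could also differ among themselves. Mfsd2a, counted here, had levels of 8.80, 9.74, 7.44 and 6.28. On the positive side the array apart was the CA pool in 20 genes, the DEN and CA pool in 12 and the control pool in 5. On the negative side it was the control pool in 19, the DEN and CA pool in 8, the DEN pool in 6 and the CA pool in 4. Over all 11651 expressed genes, a pool stood apart in 46 genes for the control pool, 34 for the CA pool, 7 for the DEN pool and 34 for the DEN and CA pool.

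Other probe sets of the same gene give a second reading of the same 4 RNA pools, not a replicate. Of the 46 positive genes, 14 had another probe set with a mean above background, and in 12 every one had the same sign, the exceptions being Asns, through the floor, and Meg3. In 10 of these every one also reached 1.5-fold. Of the 63 negative genes, 26 had another such probe set, 21 with the same sign throughout and 12 that also reached 1.5-fold. Meg3, a long noncoding RNA with levels of 7.44, 6.83, 8.61 and 9.46, had 1.46 on the probe set used and from -0.20 to 1.45 on the others.

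**Figure D4:**
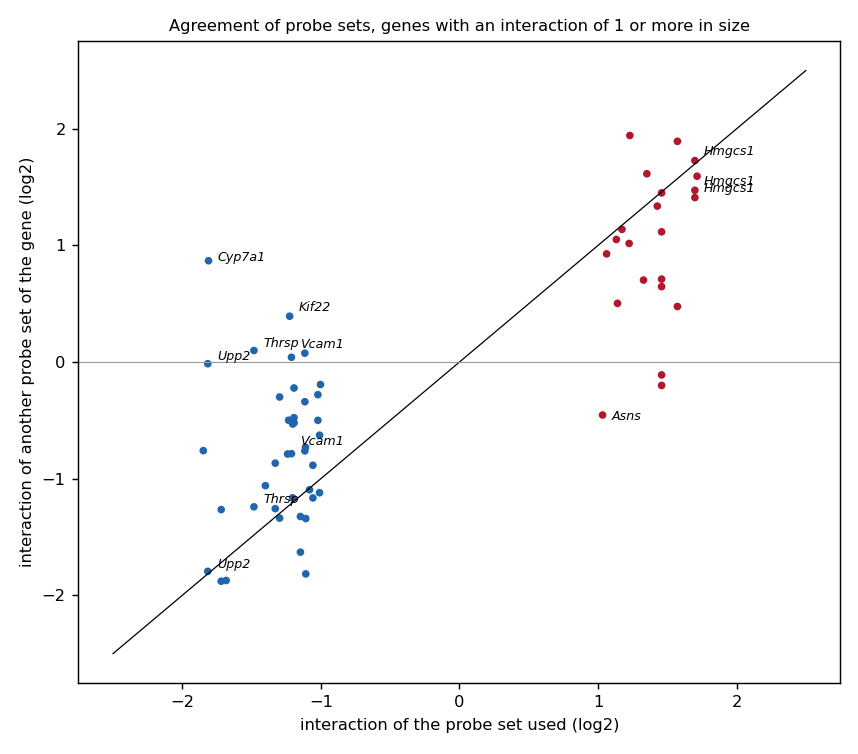
Each point is another probe set with a mean above background, with its own interaction (y axis, log2) against that of the probe set used for the gene (x axis, log2). Points near the solid line read the same value. Hmgcs1 lies near the line, and Cyp7a1, Kif22 and Asns have the opposite sign on another probe set. For Cyp7a1 and Asns this holds only with levels raised to background, since their other probe sets gave -0.53 and 2.20 as deposited.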

How the data were processed

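The authors' deposited values were log2 expression values, which the submitters' processing notes credit to RMA and Partek 6.5, from 1 array for each of 4 RNA pools. RMA, whose options were not given in the sources used here, draws the array distributions together, which removes a shift shared by most genes. Total RNA was isolated with Trizol and labelled with a FlashTag biotin kit, per the labels' protocols. No counts exist for arrays, and the number of arrays (4) limits the precision.

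Of 45101 probe sets, 34958 had 1 gene symbol, 932 several and 9211 none, and the first were used. A gene took its probe set with the highest 4-array mean. Levels below 4.855 were raised to it, and an interaction with a raised level is given as a bound where its direction allows. Called means 2-fold. The text names the 14 highest and 14 lowest genes without predicted names, up to 4 members of each of 41 lists and a set of liver genes. Other genes at 2-fold were chosen after their values were seen. Members and lists were chosen with earlier results of these data known. Python 3.11.15, pandas 2.3.3 and statsmodels 0.14.6 were used. The steps were tested on simulated data. Alternatives covered the floor, the filter, normalization, probe set choice and threshold.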

Additional observations from a re-analysis of the deposited data

Results flagged for a closer look

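In 5 genes past 2-fold the CA diet difference had opposite directions with and without DEN, each at least 1.5-fold, and the difference was not tested because each group had 1 array. Mfsd2a (interaction -2.11), Lpin1 (-1.68) and Jchain (-1.51) were higher on the CA diet without DEN and lower on it after DEN. Meg3 (1.46) and Saa2 (1.76) were lower on the CA diet without DEN and higher on it after DEN. For Meg3 the other probe sets ranged from -0.20 to 1.45.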

How the results depend on the processing

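The count of 46 positive genes was 26 with a filter at the upper quartile and 234 at 1.5-fold. The count of 63 negative genes was 36 with that filter, 36 with the mean over a gene's probe sets and 333 at 1.5-fold. Under the other alternatives the counts were within 1.5 times of these, from 33 to 67 positive and from 52 to 92 negative, the highest with each probe set counted alone. All 109 genes kept their sign as deposited and under quantile normalization, median centring and loess centring, and as deposited 5 of them (Anxa13, Calml4, Cdh17, Ubd and Zfp677) were under 2-fold. With the mean over probe sets 98 kept their sign, 67 of them at 2-fold, and 9 were at 0 because all 4 levels of that mean were raised to background. Under that mean the interaction of Cxcl11 (-0.0523) and the interaction of Osbpl3 (-0.00114) reversed. Median centring moved the median of all genes by 0.08. Each group was 1 pool, so leaving out an array leaves no interaction. No paired analysis was possible because the result comes from no test. Differences of genes near background are compressed, and raised levels give bounds only.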
